A study of Mus musculus with 8 samples.

Results

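The mitochondrial ribosomal protein genes of the mouse were taken as all gene symbols in the count tables that begin with Mrpl or Mrps, followed by a number and at most 1 further letter. The rule found 77 of 24222 symbols, 48 of them Mrpl genes, named for the large subunit of the mitochondrial ribosome, and 29 Mrps genes, named for the small subunit. Haematopoietic stem cells, from which all blood cells derive, had been sorted by flow cytometry from bone marrow of 4 Kdm4a/b/c triple knockout (KO) mice and 4 wild-type (WT) control mice. Both groups were of the C57BL6 strain and were sampled 2 weeks past induction of the deletion. The 3 targeted genes encode histone demethylases that act on methylated lysines of histone H3. Each mouse gave 1 RNA-seq library. The sources used here do not give the inducing agent, whether the controls received it, the deleted exons, the age of the mice or the sort markers.

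The mitochondrial ribosome translates the few mRNAs encoded by mitochondrial DNA, which specify core subunits of the respiratory chain and of ATP synthase. Its rRNAs come from mitochondrial DNA, but all of its proteins are encoded in the nucleus, translated in the cytosol and imported. Haematopoietic stem cells are known for low reliance on respiration at rest, and for a need of mitochondrial function when they leave quiescence and differentiate.

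The libraries held between 5541504 and 14872493 counts in KO mice, and between 3594315 and 6044289 in WT mice. The targeted genes were read first as a check of the labels. Kdm4c averaged 36.0 ± 10.6 CPM (counts scaled to a common library total) in KO mice and 115 ± 22.7 CPM in WT mice (SD, n = 4 each), a log2 fold change of -1.71 that passed edgeR's quasi-likelihood test (adjusted p = 2.05e-05). Kdm4a averaged 20.3 ± 3.86 CPM in KO mice and 36.3 ± 9.56 CPM in WT mice (edgeR adjusted p = 0.132), and Kdm4b 3.73 ± 1.79 CPM in KO mice and 10.2 ± 2.44 CPM in WT mice (edgeR adjusted p = 0.142). The KO and WT libraries did not overlap for any of the 3 genes, and the exact two-sided permutation test gave p = 0.0286 for each, the smallest value that 4 against 4 mice allow. All 13 genes of a haematopoietic stem cell marker list were detected, with summed levels of 3944 to 4388 CPM in KO mice and 4789 to 5104 CPM in WT mice. Of the 13, 0 passed the edgeR threshold or that of limma voom, and DESeq2 called 1 higher and 1 lower. At an unadjusted edgeR p under 0.05, 1 was higher and 5 were lower, where 5.76% of all genes tested were higher and 5.44% lower. Markers of other cells were listed at summed levels of 272 to 291 CPM in KO mice and 164 to 213 CPM in WT mice for 5 megakaryocyte genes, and 1250 to 1455 CPM in KO mice and 2193 to 2431 CPM in WT mice for 9 erythroid genes, mostly Car2. The sums were 32.0 to 73.0 CPM in KO mice and 27.8 to 50.5 CPM in WT mice for 7 neutrophil and monocyte genes such as Mpo. For 5 macrophage genes, mostly Cd68, they were 14.6 to 27.7 CPM in KO mice and 3.64 to 11.9 CPM in WT mice. The sums were 11 to 28 CPM in KO mice and 4.48 to 20.1 CPM in WT mice for 5 lymphocyte genes, mostly Nkg7, and 2.14 to 14.5 CPM in KO mice and 3.92 to 17.4 CPM in WT mice for 4 stromal and endothelial genes. Hba-a1, Hbb-bs and Cd3g were listed at 0 in every library, as were 2 of 81 cytosolic ribosomal protein genes, Rpl26 and Rpl10l. With Rpl26 at 0, a 0 in these tables does not show absence. Within the megakaryocyte list Gp1ba and Itga2b rose and Pf4 had a log2 fold change of -0.43. Within the erythroid list Car2 fell and Gata1 had a log2 fold change of 0.44. Within the macrophage list only Cd68 had enough counts to be tested. C1qb averaged 0.259 CPM in KO mice and 1.53 CPM in WT mice, and C1qc 1.34 and 0.522 CPM. The macrophage gene Cd68 rose (edgeR adjusted p between 4.19e-06 and 0.0347 for the 4 genes that changed). Their part in the results on mitochondrial ribosomal protein genes was not tested. In bulk RNA, fewer cells of a type and less RNA per cell cannot be told apart.

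No mitochondrial ribosomal protein gene passed the test for a difference between KO and WT mice after adjustment over all genes. A total of 76 genes were tested, and 0 rose and 0 fell by edgeR's quasi-likelihood test at an adjusted p under 0.05, where 0.252% of all 11498 tested genes rose and 0.33% fell (0.583% in either direction). DESeq2's Wald test and limma voom also called 0 of the 76. At an unadjusted p under 0.05, 2 genes were higher in KO mice (Mrpl35 and Mrpl30) and 3 were lower (Mrps17, Mrps18a and Mrpl9). These are 2.63% and 3.95% of the 76, against 5.76% higher and 5.44% lower among all genes tested. With the same cut, DESeq2 and limma voom each had 3 higher and 2 lower. The smallest edgeR adjusted p was 0.206, for Mrpl35.

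Every KO library lay above every WT library for 1 of the 76 genes (1.32%) and below for 2 (2.63%), where 2.88% and 2.93% of all genes tested did so. Fitted folds were above 1 for 51 of the 76 genes (67.1%) and below 1 for 25, against 50.2% above 1 among all genes tested. The median log2 fold change was 0.15 over the members and 0.00 over all genes tested. Leaving out WT mouse 3 brought the members' median to 0.08 and the number above 1 to 45. The folds were spread as widely as those of other genes, with an interquartile range of 0.42 on the log2 scale for the members and 0.41 for all genes tested. They ran from -0.75 (Mrps18a) to 0.86 (Mrps36), 11 exceeded 0.5 in size and 0 exceeded 1.

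**Figure D1:**
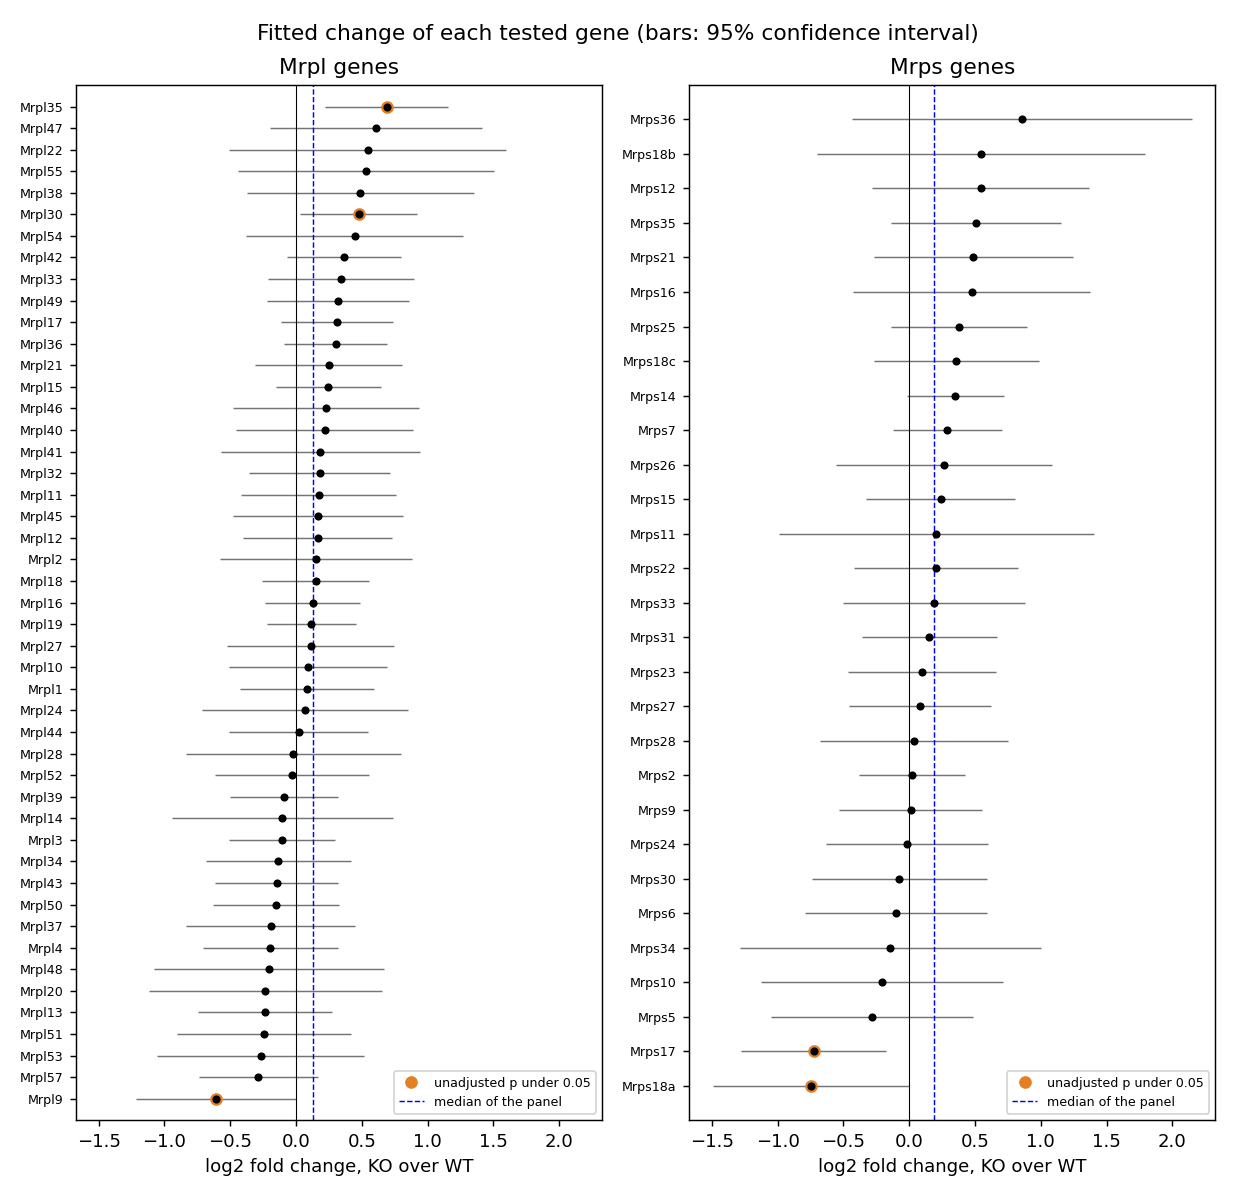
Log2 fold changes, KO over WT, of the 76 tested genes (points) with 95% confidence intervals (bars), Mrpl genes left and Mrps genes right, ordered by size. A dashed line gives the panel median, and larger orange points mark genes with an unadjusted edgeR p under 0.05. Most points lie slightly above 0, and the extremes are Mrps36 at 0.86 and Mrps18a at -0.75.

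The precision of these folds followed the level of each gene. The median standard error of a member's log2 fold change was 0.30, and errors ran from 0.17 to 0.63, against a median of 0.25 over all genes tested. Members received 2 to 1383 counts per library, with a median of 110. The 95% confidence interval lay within a 2-fold change in either direction for 53 of the 76 genes, and within a 1.5-fold change for 8. For the other 23 it reached past a 2-fold change. Of the 76 tested, 68 had at least 10 counts in all 8 libraries. The other 8 were Mrpl48, Mrpl55, Mrps10, Mrps11, Mrps16, Mrps18b, Mrps34 and Mrps36. The remaining member, Mrpl23, was not tested. It had 8, 7, 27 and 4 counts in KO mice and 5, 2, 4 and 3 counts in WT mice, against a detection floor of 3 counts. The 27 counts came from the deepest library, and scaled to depth the groups overlapped.

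The 5 genes with an unadjusted p under 0.05 were looked at in their promoters, since NRF1, ETS factors such as GABP, and YY1 are known regulators of nuclear genes for mitochondrial proteins. Of the 77 genes, 68 had a promoter of 300 bases (250 before and 50 after the start) in the RefSeq table of build GRCm38.p6. For the 5 genes, the 200 bases before the RefSeq start are shown 5′ to 3′, with a searched motif in capitals where 1 was found. Mrpl35 lies at chr6:71823785-71823984 on the minus strand, and Mrps17 at chr5:129715297-129715496, Mrpl30 at chr1:37890277-37890476, Mrps18a at chr17:46110804-46111003 and Mrpl9 at chr3:94443136-94443335, all on the plus strand. The capitals mark the NRF1 motif in Mrpl30, which has it at separate places on each strand, and in Mrpl9, and the ETS motif in Mrps18a.
Mrpl35: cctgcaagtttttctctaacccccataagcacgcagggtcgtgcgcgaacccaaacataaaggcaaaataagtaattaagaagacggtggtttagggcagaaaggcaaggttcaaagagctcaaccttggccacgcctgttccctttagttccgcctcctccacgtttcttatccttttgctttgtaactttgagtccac
Mrps17: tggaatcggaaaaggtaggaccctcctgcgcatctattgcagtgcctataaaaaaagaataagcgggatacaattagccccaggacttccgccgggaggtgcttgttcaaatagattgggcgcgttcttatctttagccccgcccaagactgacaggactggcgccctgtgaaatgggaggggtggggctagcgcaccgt
Mrpl30: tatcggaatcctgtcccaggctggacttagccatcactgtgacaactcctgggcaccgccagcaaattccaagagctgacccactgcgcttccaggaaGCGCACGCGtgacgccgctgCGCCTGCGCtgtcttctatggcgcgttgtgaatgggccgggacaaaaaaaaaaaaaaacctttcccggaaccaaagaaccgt
Mrps18a: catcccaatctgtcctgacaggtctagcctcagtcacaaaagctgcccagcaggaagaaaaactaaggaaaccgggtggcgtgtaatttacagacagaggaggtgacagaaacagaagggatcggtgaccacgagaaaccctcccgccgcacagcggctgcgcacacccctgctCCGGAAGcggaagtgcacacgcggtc
Mrpl9: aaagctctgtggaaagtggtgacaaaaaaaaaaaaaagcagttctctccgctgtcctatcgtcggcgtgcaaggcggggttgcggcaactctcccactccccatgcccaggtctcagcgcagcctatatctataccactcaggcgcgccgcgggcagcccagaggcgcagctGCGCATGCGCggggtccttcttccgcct
Past the start, Mrpl35 and Mrps18a each held the YY1 motif, at chr6:71823742-71823771 on the minus strand and chr17:46111005-46111034 on the plus strand. The 30 bases around each are shown with the motif in capitals.
Mrpl35: ggcaggctgcAAGATGGCGgcttccatctt
Mrps18a: ggtgcgttccAAGATGGCGgccctcagggc

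The motifs were GCGCANGCG for NRF1, CCGGAAG for ETS factors and AAGATGGCG for YY1, each searched on both strands. None of the 3 contains another, and the NRF1 motif can overlap its own reverse complement. The NRF1 motif was found in the promoters of 16 of the 68 members (23.5%), against 16.1% of the 8796 tested genes with a promoter and 7.03% of all 27025 genes in the table. The ETS motif was found in 25 (36.8%), against 21.1% of tested genes and 9.93% of all. The YY1 motif was found in 8 (11.8%), against 3.83% of tested genes and 1.64% of all. The median log2 fold change was 0.15 for the 41 members with any of the 3 motifs (60.3%, against 35.6% of tested genes and 16.5% of all) and 0.15 for the 26 tested members with none. For the YY1 motif alone the medians were 0.14 over the 8 members with it, Mrpl35 and Mrps18a among them, and 0.15 over the 59 tested members without it.

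Mrpl35 encodes a large-subunit protein. Its levels were 55.3, 40.8, 51.7 and 37.9 CPM in KO mice and 29.3, 33.3, 19.4 and 35 CPM in WT mice. The lowest KO mouse lay just above the highest WT mouse, so the groups did not overlap. The log2 fold change was 0.69 (SE 0.23, 95% confidence interval 0.22 to 1.16), and it missed the threshold after adjustment (edgeR adjusted p = 0.206). It kept its sign under each of the 17 alternative settings, with values from 0.54 to 0.81 and a lowest adjusted p of 0.14. Mrpl30, also of the large subunit, had 72.2, 55.5, 48.5 and 44.9 CPM in KO mice and 40.0, 45.0, 27.4 and 46.0 CPM in WT mice. KO mouse 4 lay below 2 of the WT mice, so the groups overlapped. Its log2 fold change was 0.48 (SE 0.21, edgeR adjusted p = 0.395).

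Mrps17, a small-subunit protein gene, had 15.1, 14.3, 13.0 and 12.1 CPM in KO mice and 24.6, 19.9, 23.9 and 21 CPM in WT mice. The highest KO mouse lay below the lowest WT mouse, and the KO libraries lay close together. The log2 fold change was -0.73 (SE 0.27, edgeR adjusted p = 0.282), and it ran from -0.87 to -0.67 under the alternatives. Mrpl9, of the large subunit, had 24.3, 14.7, 13.7 and 10.6 CPM in KO mice and 21, 18.2, 21.5 and 32.6 CPM in WT mice. KO mouse 1 lay within the WT range and the other 3 KO mice below it. The log2 fold change of Mrpl9 was -0.61 (SE 0.29, edgeR adjusted p = 0.446).

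**Figure D2:**
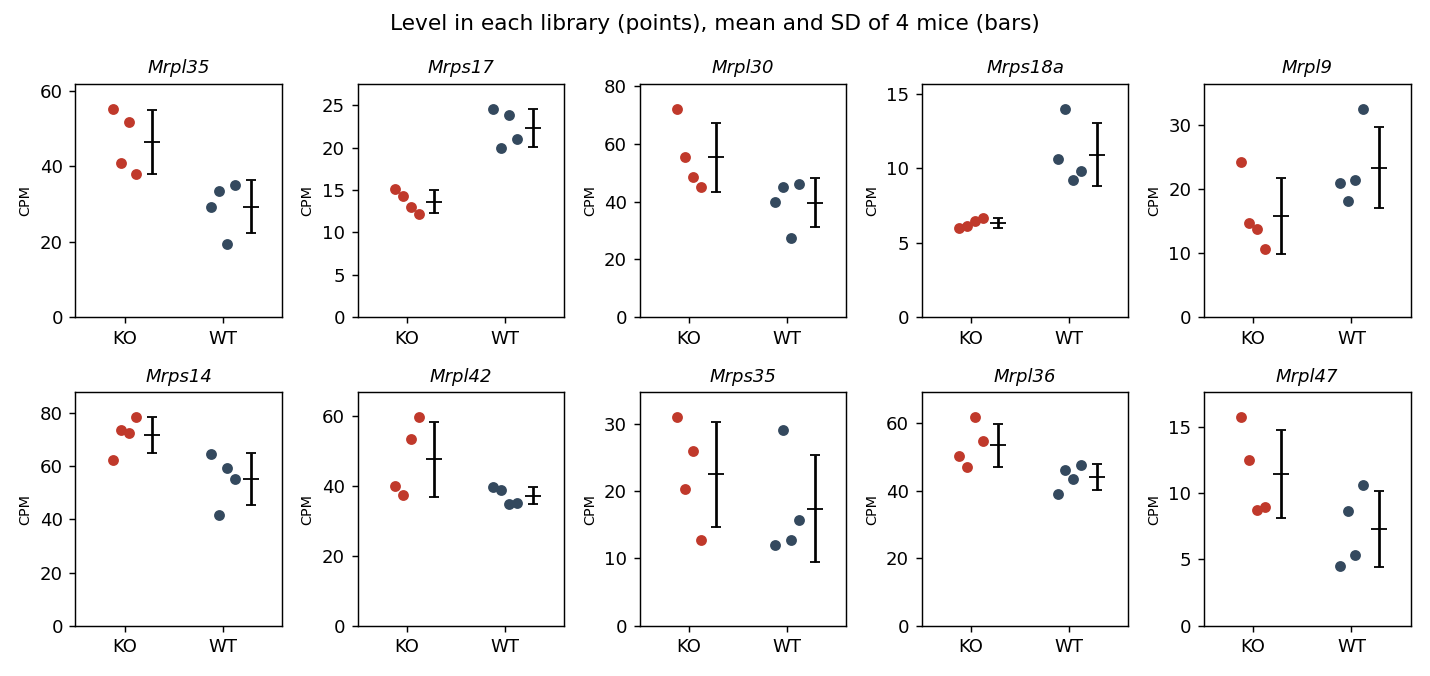
Levels in CPM of the 10 genes with the smallest unadjusted p in each of the 4 KO mice (left) and 4 WT mice (right), with the group mean and SD. KO and WT points do not overlap for Mrpl35, Mrps17 and Mrps18a.

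The 3 S18 paralogues had folds of both signs, and none passed the test. In human mitochondrial ribosomes the MRPS18A protein sits in the large subunit, and MRPS18B and MRPS18C in the small subunit. Mrps18a had 6, 6.09, 6.48 and 6.68 CPM in KO mice and 10.6, 14, 9.21 and 9.84 CPM in WT mice. All KO mice lay below all WT mice, and the KO mice differed by less than 1 CPM. The log2 fold change was -0.75 (SE 0.36, edgeR adjusted p = 0.444). Mrps18b had 3.14, 0.566, 3.81 and 2.41 CPM in KO mice and 1.91, 1.68, 2.74 and 1.29 CPM in WT mice, so the groups overlapped. It is the lowest of the 3, and 30.5% of its exons overlap Gm16279. Mrps18c had 29.4, 11.9, 26.3 and 24.5 CPM in KO mice and 10.7, 20.7, 18 and 24.0 CPM in WT mice, with KO mouse 2 among the lowest libraries. Neither Mrps18b nor Mrps18c passed the edgeR test, with log2 fold changes of 0.54 and 0.36 (adjusted p = 0.809 and 0.729).

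None of the genes for the core and stalk of the large subunit passed the test. Mrpl2, Mrpl3 and Mrpl4, grouped here as core genes, had log2 fold changes of 0.15, -0.11 and -0.19. When 1 mouse was left out, Mrpl2 ran from 0.03 to 0.55, the highest without WT mouse 4, and Mrpl4 from -0.36 to -0.02, the smallest change without WT mouse 3. Mrpl3, the most abundant of them in CPM, had 59.7, 50, 48.9 and 39.0 CPM in KO mice and 54.4, 64.1, 41.3 and 55.8 CPM in WT mice. The groups overlapped over most of their range. Mrpl10, Mrpl11 and Mrpl12 form the base and the stalk that recruits translation factors, and their log2 fold changes were 0.09, 0.17 and 0.17. Mrpl12 had 21.4, 17.4, 17.4 and 20.6 CPM in KO mice and 14.9, 19.3, 13.7 and 19.8 CPM in WT mice, which overlap. Mrpl10 averaged 19.7 CPM in KO mice and 19.9 CPM in WT mice, and its log2 fold change was -0.26 without KO mouse 3 and -0.03 without WT mouse 3.

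At the exit tunnel, where MRPL45 holds the ribosome at the inner membrane, Mrpl22, Mrpl24 and Mrpl45 had log2 fold changes of 0.55, 0.07 and 0.17, and Mrpl23 was too low to test. Mrpl22 had 4.00, 2.12, 6.42 and 7.06 CPM in KO mice and 1.91, 4.48, 2.35 and 5.32 CPM in WT mice. Its libraries of both groups were low and overlapped, and its transcript is 97.1% identical to Gm6997 over 621 bases. Mrpl45 had 16.4, 21.4, 16.4 and 22.1 CPM in KO mice and 13.9, 5.31, 20.4 and 22.7 CPM in WT mice. WT mouse 2, the library with the fewest counts, was the lowest. Without it the sign of the Mrpl45 fold turned, to -0.04.

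In the small subunit, Mrps12 and Mrps5 encode proteins of the decoding region. Mrps12 had 16.3, 7.36, 9.29 and 10.2 CPM in KO mice and 8.84, 6.15, 3.33 and 9.68 CPM in WT mice (log2 fold change 0.54, SE 0.40, edgeR adjusted p = 0.671). Mrps5 had 5, 10.8, 8.22 and 7.43 CPM in KO mice and 8.84, 8.39, 13.5 and 8.07 CPM in WT mice (log2 fold change -0.29, SE 0.37, edgeR adjusted p = 0.845). Both pairs of groups overlapped. The fold of Mrps5 was -0.09 on the log2 scale without WT mouse 3 and -0.15 without KO mouse 1, and that of Mrps12 was 0.31 without WT mouse 3 and 0.30 without KO mouse 1. Mrps27, a pentatricopeptide repeat protein gene, and Mrps22 had log2 fold changes of 0.08 and 0.20. Mrps22 had 36.4, 24.2, 34.6 and 24.7 CPM in KO mice and 14, 52.3, 16.5 and 30.5 CPM in WT mice, with the WT mice spread on both sides of the KO mice.

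Among the other genes with the smallest unadjusted p, Mrps14, Mrpl42, Mrps35, Mrpl36 and Mrpl47 were all higher on average in KO mice and all overlapped. Mrps14 had 62.3, 73.6, 72.4 and 78.4 CPM in KO mice and 64.7, 41.7, 59.5 and 55.3 CPM in WT mice (log2 fold change 0.35, SE 0.18, edgeR adjusted p = 0.474). Only KO mouse 1 fell within the WT range. Mrpl36 had 50.3, 47.0, 61.7 and 54.8 CPM in KO mice and 39.0, 46.2, 43.3 and 47.6 CPM in WT mice, with KO mouse 2 below WT mouse 4. Mrpl47 averaged 11.4 ± 3.33 CPM in KO mice and 7.28 ± 2.88 CPM in WT mice (SD, n = 4 each). By size of fold, Mrps12, Mrpl38 and Mrps21 (log2 fold changes of 0.54, 0.49 and 0.49) were among the highest, and Mrps5, Mrpl57 and Mrpl53 (-0.29, -0.29 and -0.27) among the lowest with a mean of at least 5 CPM. Mrpl53 shares 88.0% of its exons with other annotated genes, and counting may not have separated them. Mrps36, chosen after its values were seen, is known as a component of the α-ketoglutarate dehydrogenase complex. It had 33, 9, 45 and 13 counts in KO mice and 5, 2, 8 and 18 counts in WT mice, groups that overlap. Part of its transcript, 306 to 309 bases, matches 4 pseudogenes at 95.5% to 99.3% identity.

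Levels were compared between genes per length. Per kilobase of exon, levels ran over a 65.1-fold range, with a median of 7.68 CPM per kb against 6.91 for all tested genes with a length and 102 for 74 cytosolic ribosomal protein genes. The members' medians were 8.14 CPM per kb in KO mice and 7.16 in WT mice, and Spearman's rho between KO and WT mean levels was 0.971 over the 76 genes, a description that their wide range of levels keeps high. Mrpl18 was the highest at 47.3 CPM per kb, followed by Mrpl36 at 42.0 and Mrpl34 at 30.6. Mrpl18 had 45.1, 59.1, 38.6 and 59.0 CPM per kb in KO mice and 58.3, 37.8, 42.3 and 38.3 in WT mice, so that it and Mrpl36 did not differ beyond their spread. Mrps10, Mrpl48 and Mrps18b were the lowest at 0.727, 0.802 and 1.05 CPM per kb. Genes with an Mrpl name had a median of 8.03 CPM per kb and those with an Mrps name 6.58. Levels per kb were lower for longer exons (rho = -0.475 over genes), but exon length divides these levels, so the division alone can give a negative rho. The merged exons of Mrps10 and Mrpl48 are long, at 8079 and 8152 bases, where their longest transcripts have 4090 and 4285 bases. Over genes, rho of the log2 fold changes was -0.13 with length, 0.00 with GC content and -0.04 with level in CPM, not per kb.

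**Figure D3:**
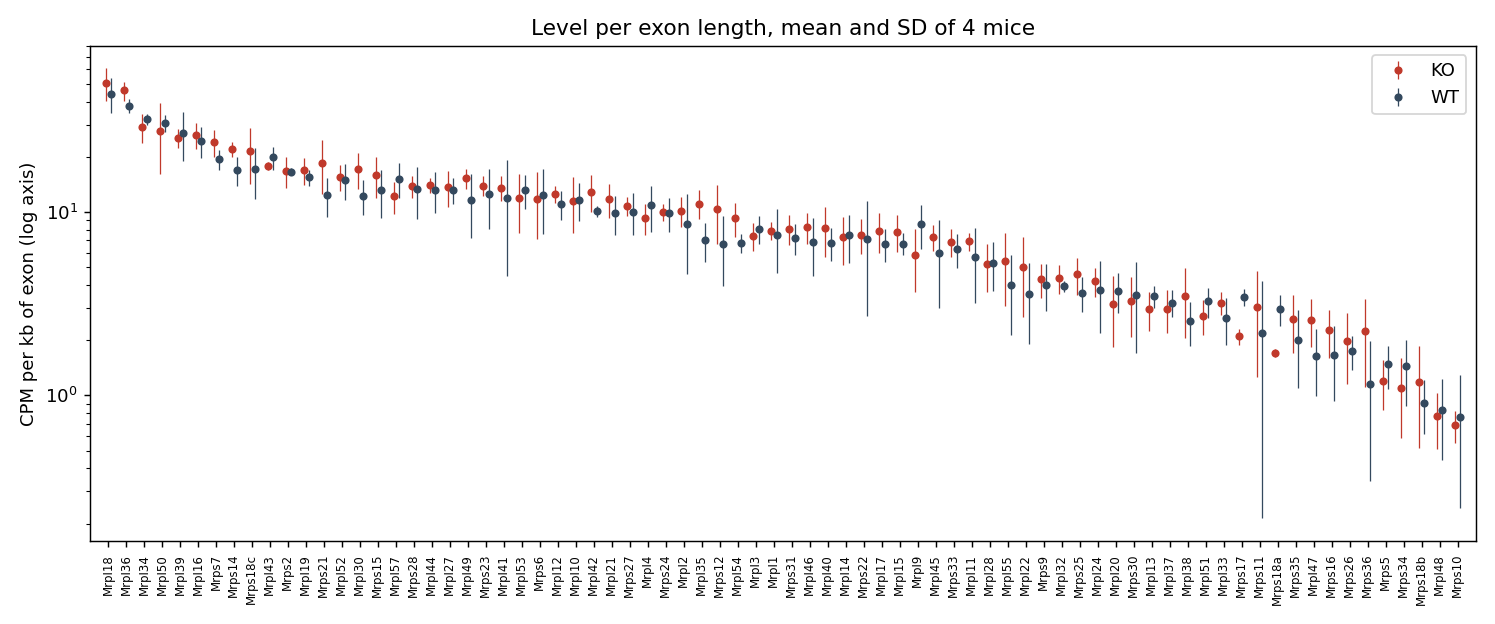
Mean levels in CPM per kb of exon (log axis) of the tested genes in KO mice and WT mice, with the SD of 4 mice, ordered by the mean over all libraries. The order runs from Mrpl18 at 47.3 to Mrps10 at 0.727 CPM per kb, and most KO and WT bars overlap.

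Split by name, which for some members, such as Mrps18a and Mrps36, is not the place of the protein, both sets had medians slightly above 0. Mrpl genes had a median log2 fold change of 0.13, with 30 of 47 above 1, and Mrps genes 0.19, with 21 of 29 above 1. The difference of the medians was -0.06, and it turned to 0.03 without KO mouse 1. The summed level of all members was 2003, 1779, 1906 and 1829 CPM in KO mice and 1755, 1731, 1593 and 1838 CPM in WT mice. WT mouse 4 lay above KO mice 2 and 4, so the groups overlapped. The members made up 0.178% to 0.199% of all counts in KO mice and 0.16% to 0.188% in WT mice.

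Averaged over the members, log2 levels centred on each gene's mean were 0.18, -0.07, 0.10 and 0.05 in KO mice and -0.04, -0.16, -0.14 and 0.08 in WT mice. KO mouse 1 was the highest library for 18 of the members, and WT mouse 2 the lowest for 19 and WT mouse 3 for 15. A list of 14 genes of cycling cells, such as Mki67, gave 0.38, 0.10, -0.10 and 0.09 in KO mice and -0.11, -0.15, -0.28 and 0.06 in WT mice. That list had a median log2 fold change of 0.24, with 12 of 14 above 1, and summed levels of 4311 to 6046 CPM in KO mice and 3507 to 4553 CPM in WT mice. By edgeR and DESeq2, 0 of its 14 genes passed the threshold and 4 were higher at an unadjusted p under 0.05 (by limma voom 0 and 3). By edgeR, 5.76% of all genes tested were higher at that cut. By mean, KO mouse 1 was highest on both lists, WT mouse 2 lowest for the members and WT mouse 3 lowest for the cycling list. By median over genes, WT mouse 3 was lowest on both lists, at -0.17 for the members and -0.29 for the cycling list. WT mouse 2 stood at medians of -0.04 and -0.22. The part of cycling cells in the members' levels was not tested.

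**Figure D4:**
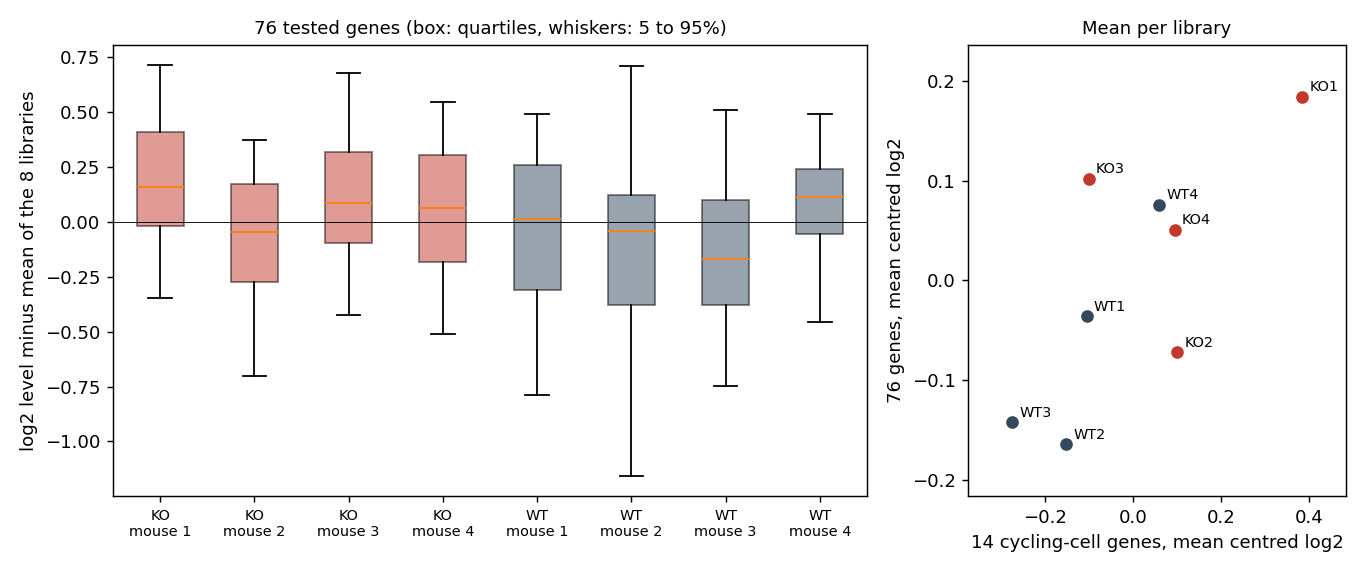
Left, the members' log2 level in each library minus each gene's mean over the 8 libraries (box, quartiles; whiskers, 5% to 95% of the 76 genes), KO mice before WT mice; right, the mean of these values per library against that of the 14 cycling-cell genes. On the vertical axis of the right panel KO mouse 1 is highest at 0.18 and WT mouse 2 lowest at -0.16, and WT mouse 4 at 0.08 lies among the KO mice.

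Other genes of mitochondrial translation were described in the same fit, together with the cytosolic ribosomal protein genes. Of the 171 genes tested in these lists, 0 passed the threshold by edgeR, DESeq2 or limma voom. At an unadjusted edgeR p under 0.05, 11 of the 171 were higher and 4 lower, where 5.76% of all genes tested were higher and 5.44% lower. Of 6 mitochondrial ribosome proteins without an Mrp name, 5 were above a fold of 1, and the median was 0.21 on the log2 scale. Ptcd3, a pentatricopeptide repeat protein of the small subunit, had 71.5, 73.9, 60.0 and 59.2 CPM in KO mice and 54.3, 42.2, 55.6 and 57.3 CPM in WT mice, with no overlap (log2 fold change 0.31, edgeR adjusted p = 0.537). Of 27 genes for assembly of the mitochondrial ribosome and modification of its rRNA, 17 had folds above 1 and the median was 0.11. Eral1, the chaperone of the small subunit's rRNA, averaged 25.8 ± 5.46 CPM in KO mice and 16.0 ± 4.93 CPM in WT mice (SD, n = 4 each; edgeR adjusted p = 0.316).

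Of 13 translation factors, 5 had folds above 1 and the median was -0.10. Gfm1, the elongation factor that moves the ribosome along the mRNA, had 86.9, 60.9, 78.7 and 60.2 CPM in KO mice and 52.2, 45.3, 49.9 and 51.6 CPM in WT mice. The groups did not overlap (log2 fold change 0.53, SE 0.18, edgeR adjusted p = 0.245). Of 20 genes for mitochondrial aminoacyl-tRNA synthetases and the related glutamyl-tRNA amidotransferase, 14 had folds above 1 and the median was 0.19. Gatc, a subunit of that amidotransferase, had 136, 122, 129 and 104 CPM in KO mice and 86.2, 97.6, 70.3 and 87.9 CPM in WT mice, with no overlap (log2 fold change 0.53, SE 0.16, edgeR adjusted p = 0.135). Lars2, the leucyl-tRNA synthetase, held 87.2% of this list's CPM, at 3142 ± 1355 CPM in KO mice and 4445 ± 1405 CPM in WT mice (SD, n = 4 each). Iars2 was next, at 170 ± 44.1 CPM in KO mice and 129 ± 16.0 CPM in WT mice. Per kb of exon, Lars2 stood at 283 CPM in KO mice and 401 CPM in WT mice, and Gatc at 68.2 and 47.6 CPM. The cause of the high Lars2 level was not tested.

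Genes for mitochondrial DNA maintenance and transcription had a median log2 fold change of -0.17, with 4 of 12 above 1. Top1mt, the mitochondrial topoisomerase, had the smallest p, with 5.15 ± 1.80 CPM in KO mice and 11 ± 7.35 CPM in WT mice (SD, n = 4 each; edgeR adjusted p = 0.383). The median was 0.01 for 9 genes of mitochondrial proteolysis and import and 0.04 for 10 upstream regulators. Tomm20, an import receptor of the outer membrane, had the smallest p of those 9, with 66.3 ± 9.34 CPM in KO mice and 78.6 ± 13.5 CPM in WT mice (SD, n = 4 each; edgeR adjusted p = 0.696). Of the factors whose motifs were searched, Nrf1 averaged 60.9 CPM in KO mice and 60.7 CPM in WT mice, and Yy1 107 and 109 CPM. Gabpa averaged 416 CPM in KO mice and 436 CPM in WT mice. Mycn, which drives ribosome production, averaged 145 ± 29.5 CPM in KO mice and 187 ± 10.1 CPM in WT mice (SD, n = 4 each; edgeR adjusted p = 0.295).

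The cytosolic ribosomal protein genes had a median log2 fold change of 0.02, with 43 of 74 above 1, beside 0.15 and 51 of 76 for the mitochondrial ones. The mRNAs that the mitochondrial ribosome translates were not analysed here, and 0 symbols in the count tables began with mt-.

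**Figure D5:**
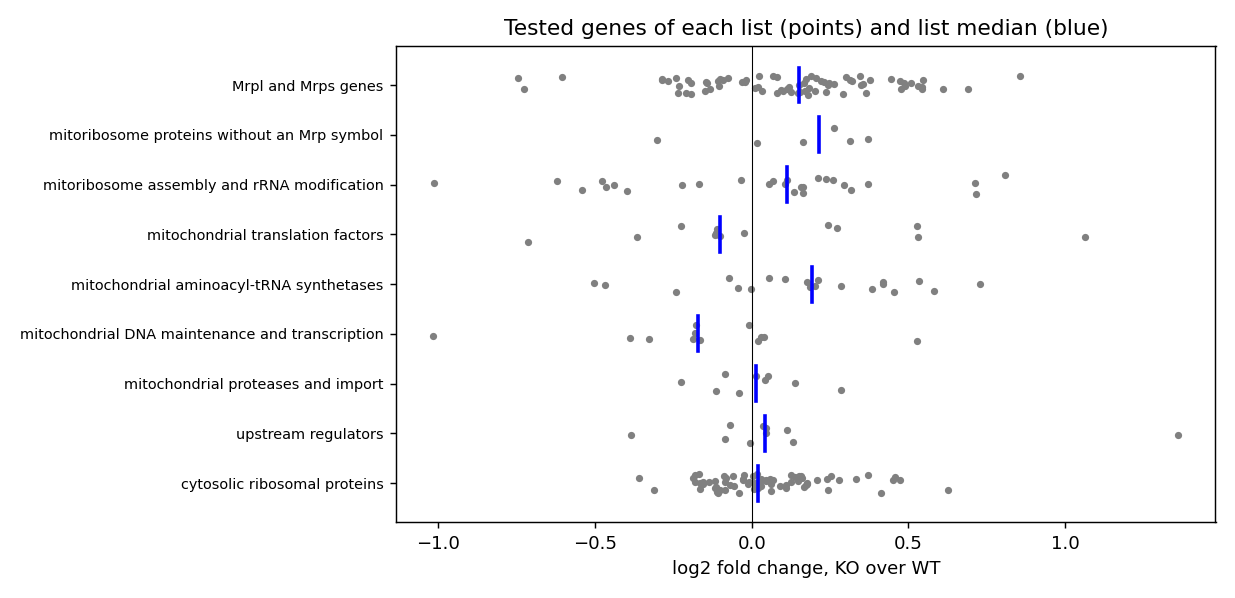
Log2 fold changes, KO over WT, of the tested genes in each list (points), with the list median (blue line). Medians run from -0.17 for mitochondrial DNA maintenance and transcription to 0.21 for mitochondrial ribosome proteins without an Mrp name.

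The members lie on 17 chromosomes, with 10 on chromosome 11 and 8 on chromosome 17. A total of 32 share some exon with another annotated gene, 7 of them over more than 25% of their exon length, and the strand setting of the counting is not given in the sources used here. A total of 17 members have a match of at least 95% over at least 200 bases in a transcript of another gene, so their counts are uncertain where such reads were not assigned.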

How the data were processed

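RNA was measured in sorted haematopoietic stem cells of 4 KO and 4 WT mice, 1 library a mouse. The authors deposited unnormalised read counts for each symbol. Per the labels' protocols they came from Nugen Ovation-amplified total RNA sequenced on a NextSeq 500, mapped with STAR (Galaxy 2.4.0d-2), counted with htseq-count (Galaxy 0.6.1galaxy1) and tested with DESeq2 (Galaxy 2.1.8.3). The build was mm10, per the submitters' processing notes. Amplified reads carry no molecular identifiers, so the detection floor of 3 counts covers counting error only. Standard errors of folds were derived from the edgeR fit, as the size of the log2 fold change over the square root of its F statistic. Confidence intervals are these errors times a t quantile, so both are approximate. Both include the spread between mice.

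Counts were tested without transformation in edgeR 4.0.16 (R 4.3.3), by the quasi-likelihood test with robust dispersion, genotype as the only term, TMM scaling and filterByExpr (minimum count 10, minimum total 15), which left 11498 genes. Two-sided p-values were adjusted over these genes (Benjamini-Hochberg), with a threshold of 0.05. CPM were scaled by TMM. Centred log2 levels used a pseudocount of 0.5 CPM. Alternatives were other size factors, library totals, no filter, a filter of 5 CPM in 4 libraries, DESeq2 1.42.0, limma 3.58.1 (voom with sample weights), a replicate block, counts thinned to 3594315, offsets for length and GC, and leaving out each mouse. The scripts were tested on simulated data. Lengths came from the GENCODE annotation of the same build, where 23061 symbols matched directly, 811 by synonym and 350 not at all. Copies were sought with BLAST 2.17.0.

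The genes named were the 6 largest folds either way at a mean of at least 5 CPM, the 10 smallest p-values, the 3 highest and 3 lowest per kb, chosen functional groups, and the gene of smallest p in each related list, of which 1 is not reported here. Mrps36, Mrpl55, Mrps11, Mrps16 and Mrps34 were named after their values were seen. The promoter motifs and their letters were also chosen after seeing the data. The members, lists and tests were chosen with earlier results of these data known. Replicates are separate mice, per the labels. As a check for a library deposited more than once, counts of each pair within a group were compared, and chi-square over degrees of freedom was at least 10.9.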

Additional observations from a re-analysis of the deposited data

Results flagged for a closer look

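In 80 groups of 4 mice examined over the named genes, the targeted genes and the summed levels, 2 held a mouse whose gap to the nearest other, as a share of the group's range (0.858 and 0.842), passed Dixon's 95% critical value, and chance gives about 1 in 20. For Mrps5, which encodes a small-subunit protein, WT mouse 3 had 13.5 CPM where the other WT mice had 8.07 to 8.84 CPM. For Mrps27, a pentatricopeptide repeat protein gene, WT mouse 1 had 29.1 CPM where the other WT mice had 17.1 to 19.0 CPM.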

How the results depend on the processing

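Under all 17 alternatives, 0 members rose and 0 fell, and the smallest adjusted p was 0.14. Of the 71 members tested in all of them, 44 kept the sign of their fold in each (30 above 1, 14 below). The members' median log2 fold change ran from 0.0835 (without WT mouse 3) to 0.169, and the number above 1 from 45 to 54. The number of all genes called ran from 35 to 199, against 67. It was 199 without a filter and 154 with DESeq2. The difference of medians, Mrpl minus Mrps genes, -0.0628 as reported, ran from -0.111 to 0.0324 when 1 mouse was left out. With DESeq2, 2 of the 3 targeted genes passed (Kdm4a adjusted p = 0.0463), against 1. Without a filter on low counts, 1 gene of the related lists passed (Lars2, log2 fold change -0.49); the cause was not tested. Those alternatives for the related lists were chosen after seeing the data.

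Genes that did not pass in any setting changed sign in some. By limma voom Mrps10 was at 0.103, and by DESeq2 Mrpl10 at -0.009. When 1 mouse was left out, the lowest and highest values were -0.485 and 0.061 for Mrpl53, -0.418 and 0.315 for Mrps10, -0.261 and 0.257 for Mrpl10, -0.03 and 0.316 for Mrpl11, -0.036 and 0.406 for Mrpl45, -0.133 and 0.299 for Mrpl24, -0.033 and 0.302 for Mrps27 and -0.036 and 0.57 for Mrps22. The cause was not tested. Replicate numbers gave no sign of pairing the mice. Correlations of deviations were -0.094 to -0.012 for the same number and -0.092 to 0.15 for different numbers. Of 4 KO mice, 0 correlated best with the WT mouse of its number, but 4 pairs are too few to settle the question. With the replicate block 0 members passed in either direction, the median was 0.157, 53 folds were above 1, and 57 genes were called. Standard errors were larger for members of lower level (Spearman's rho = -0.967 with level in CPM). With counts thinned to the smallest library, 73 members were tested, and 0 passed in either direction.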
